A study of Mus musculus with 40 samples.

Results

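The interval from 48 to 72 hr after the start of Pou5f1 suppression was examined with 6 arrays, 3 hybridised with RNA of mouse embryonic stem (ES) cells at 48 hr and 3 at 72 hr. They were chosen by their labels alone, as the arrays of those time points in the late time course, and are 6 of its 18 arrays and 6 of the 40 in the series. All 18 arrays of the late course carried RNA of the ZHBTc4 line, sampled in 3 replicates at the start (0 hr) and daily up to 120 hr. Their titles all read Tc+, for tetracycline, also at 0 hr. For its new, earlier time points the study's methods place 0 hr before tetracycline was added. The labels give strain 129/Ola, male cells and a knock-in modification. In this line both endogenous alleles of Pou5f1 are disrupted and the only source of Oct3/4 is a transgene that tetracycline shuts off, so there is 1 line, 1 promoter and no untreated culture of matching age. The study's methods give medium with leukemia inhibitory factor (LIF), which sustains ES cells, for its new, earlier time points. They take the RNA of the later time points from a previous experiment and do not describe its culture. A treatment note deposited with the late arrays describes a Tcl1 exchange vector in EBRTcH3 cells, which conflicts with the titles and with the study's methods, and the titles were followed. Nothing in the labels says whether replicates were separate cultures, so the p-values measure the spread between these arrays, which may be technical.

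Pou5f1 encodes Oct3/4, a POU-domain transcription factor that keeps ES cells and the inner cell mass pluripotent. When it is lost, ES cells turn into trophectoderm, the outer epithelium of the blastocyst from which the placenta grows. Trophectoderm is built on simple-epithelial keratins, tight junctions and a cortical actin network, and its later descendants, the giant cells, are large invasive cells with prominent stress fibres that secrete hormones, proteases and protease inhibitors.

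Each array compared the sample, labelled with Cy3, with a common reference pooled from 11 mouse cell lines, labelled with Cy5. A level below is log2 of Cy3 over Cy5 for a gene's probe, so a level of 0 means as much signal as in the reference, and levels of different probes are not comparable. A change is the level at 72 hr minus that at 48 hr. A gene was said to rise or fall when limma's adjusted p was at most 0.05 and the change at least 1.5-fold. The negative control spots on each array set a floor, the 95th percentile of their Cy3 signal, and 18.42 to 25.84% of gene probes lay below it on the 6 arrays. Arrays of the same time correlated at 0.9748 to 0.9928 across genes and arrays of 48 with 72 hr at 0.9351 to 0.9548, and the pooled SD between replicates was 0.109 log2 units at 48 hr and 0.1 at 72 hr.

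The Pou5f1 signal was already near the floor when this interval began. Its level was -0.08, -0.01 and 0.01 on the 3 arrays at 48 hr and 0.12, -0.09 and 0.05 at 72 hr. The times overlapped (change 0.06 ± 0.11 SE, limma adjusted p = 0.822), and 2 of the 48 hr arrays were under the floor. The probe had read 2.12 ± 0.25 (SD, n = 3) at 0 hr and -0.07 ± 0.21 at 24 hr. The labelled suppression was thus visible on the late arrays, and the loss of the Pou5f1 signal preceded the interval described here.

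Between 48 and 72 hr, 568 of 20718 genes tested (2.74%) passed, of which 398 rose (1.92%) and 170 fell (0.821%). The rises were also the larger changes, with 100 rises and 26 falls of at least 2-fold, and 7 rises but no fall of at least 4-fold. Among the 11377 genes with a symbol, 466 were called (4.1%), of which 312 rose (2.74%) and 154 fell (1.35%), and the median change of all of them was 0.01. At an unadjusted p below 0.05, 3420 of the 11377 (1941 higher and 1479 lower) are the background for the counts at that level given below. The arrays of the 2 times did not overlap for 6904 genes (33.3%), which include every called gene. The share of calls that rose was 70.1%, but it depended on the channel used. With the Cy3 channel alone 377 rose and 516 fell, and with the Cy5 channel corrected for bleaching 507 rose and 117 fell. In RNA of whole cultures, fewer cells of a type and less RNA per cell cannot be told apart.

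**Figure D1:**
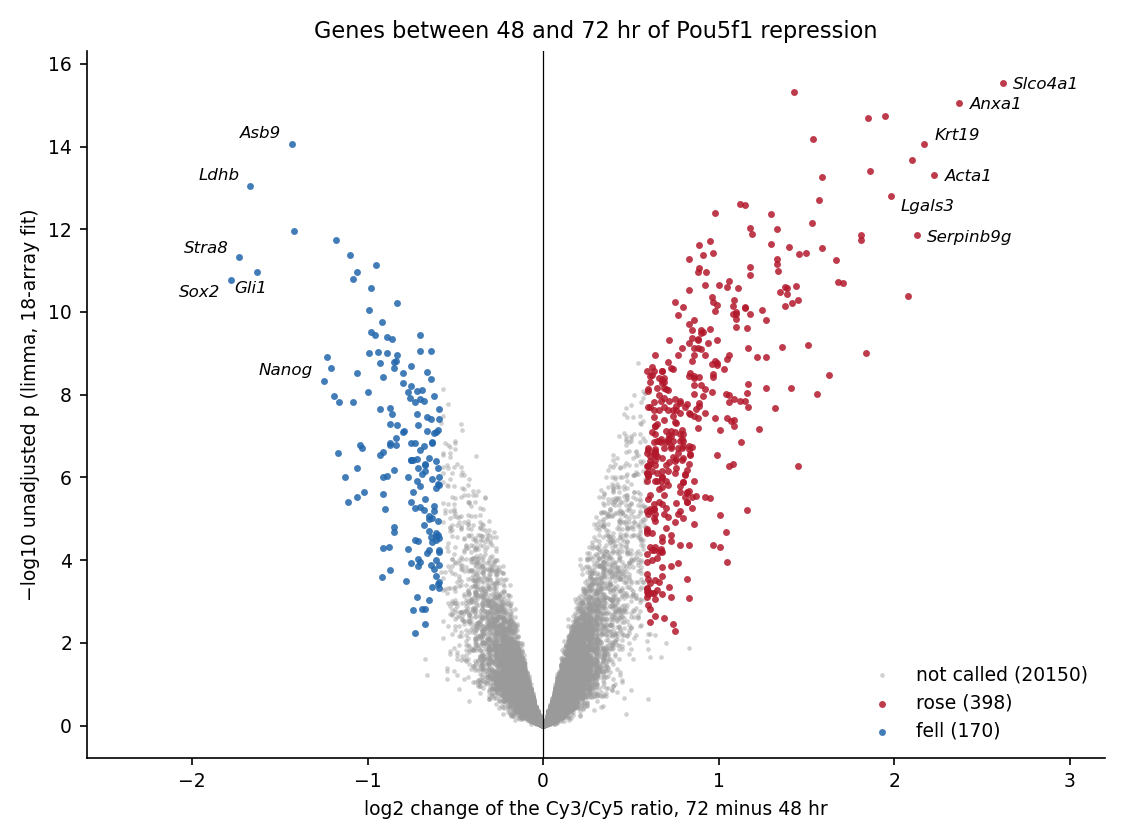
Change in log2 ratio from 48 to 72 hr (horizontal axis) against -log10 of the unadjusted limma p (vertical axis) for the 20718 genes tested. Points in colour are the 398 genes that rose and the 170 that fell, and the right side reaches further (Slco4a1 at 2.62) than the left (Sox2 at -1.78).

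The largest rises were in Slco4a1, which encodes an organic anion transporter that carries thyroid hormone, in Anxa1, a calcium-dependent phospholipid-binding annexin, and in Acta1, the skeletal muscle alpha-actin. The largest falls were in Sox2, the partner of Oct3/4 in ES cells, in Stra8, a retinoic-acid-responsive gene needed for entry into meiosis, and in Ldhb, the heart-type subunit of lactate dehydrogenase. The first 30 bases of their 60-base probes are shown because these letters are what the array read for the extremes of the interval.
Slco4a1: gcactgaatggtgtttatggaatcagtttt
Anxa1: tgacatgaatgaaatcaaagtattttacca
Acta1: aaagccctgtggaaaggaaatggaaaactt
Sox2: ctgcagttaaatttaggaccgttacaaaca
Stra8: ccagtagctagagttatactgccttgtctt
Ldhb: tctaggctgtagaacacaaacctccaatgt
The level of Slco4a1 was -0.63, -0.58 and -0.49 at 48 hr and 1.96, 2.18 and 2.02 at 72 hr. Its replicates lay within a narrow band at each time and the bands were far apart, a rise of 2.62 ± 0.08 (SE) or 6.15-fold with adjusted p = 4.86e-12. Anxa1 read -2.71, -2.79 and -2.97 and then -0.42, -0.33 and -0.61, a rise of 2.37 ± 0.08 with adjusted p = 6.15e-12, so it stayed below the reference pool throughout. Acta1 read -0.71, -0.81 and -0.72 and then 1.48, 1.5 and 1.47, a rise of 2.23 ± 0.09 with adjusted p = 9.04e-11. Acta1 thus crossed from below to above the reference on all 3 arrays, with almost no spread at 72 hr.

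**Figure D2:**
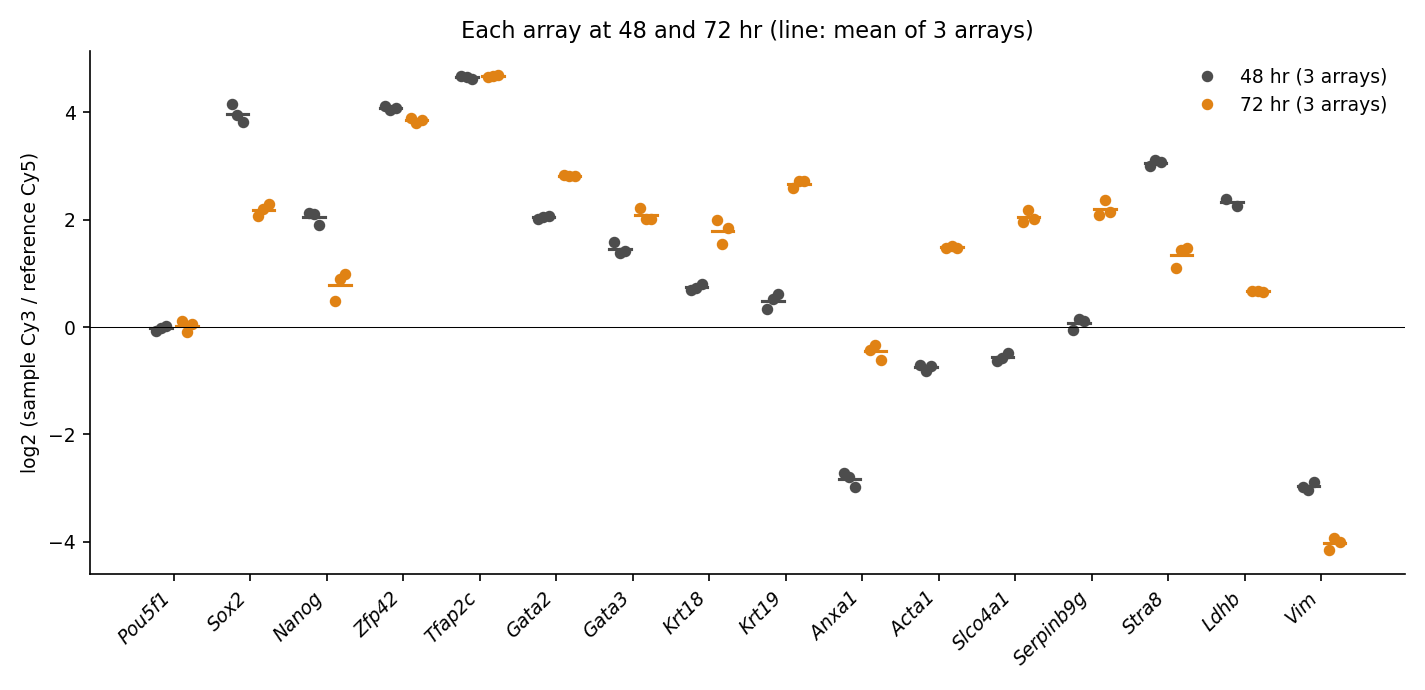
Level (log2 of Cy3 over Cy5, vertical axis) of 16 genes on each of the 3 arrays at 48 hr and the 3 at 72 hr, with a line at each mean. The points of Slco4a1, Anxa1, Acta1, Krt19 and Sox2 are separated between the times, while those of Pou5f1 and Tfap2c overlap, and levels of different genes are not comparable.

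Among pluripotency factors, 11 of 37 tested genes fell and none rose, against 1.35% of genes with a symbol that fell. The members that fell were Sox2, Nanog, Dppa2, Spp1, Klf2, Dppa5a, Tfcp2l1, Tdh, Trim28, Fbxo15 and Gdf3. At an unadjusted p below 0.05, 22 members were lower and none higher. The median change of the list was -0.28 against 0.01 over all genes with a symbol, and 32 of the 37 were lower at 72 hr. Sox2 read 4.15, 3.94 and 3.82 at 48 hr and 2.07, 2.2 and 2.29 at 72 hr. It was still above the reference at 72 hr, but by far less than at 48 hr (-1.78 ± 0.09, adjusted p = 6.35e-09). Nanog, the homeodomain factor of naive pluripotency, read 2.12, 2.1 and 1.9 and then 0.48, 0.9 and 0.98 (-1.25 ± 0.11, adjusted p = 5.38e-07). Dppa2, a chromatin-associated gene of early embryos and ES cells, fell by 1.08 ± 0.1 from a mean of 4.73, and Spp1, the secreted phosphoprotein osteopontin, fell by 1.23 ± 0.1 from a level already far below the reference (-5.56). After correction of Cy5 for bleaching, 7 members of the list fell.

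Several of the genes best known from ES cells did not pass in this interval. Zfp42 (Rex1), a zinc finger gene used as a marker of undifferentiated cells, read 4.12, 4.04 and 4.08 at 48 hr and 3.9, 3.8 and 3.85 at 72 hr. These arrays did not overlap and the adjusted p was 0.0309, but the change of -0.23 was below 1.5-fold. Klf4 (-0.28 ± 0.13, adjusted p = 0.222), Tcl1 (-0.24 ± 0.09, adjusted p = 0.0931) and Dppa3 (-0.1 ± 0.07, adjusted p = 0.467) did not pass either. Tcl1, a coactivator of Akt kinase, and Klf4 had changed by -3.33 and -1.72 in the first day, on the arrays of 0 and 24 hr. Esrrb was below the floor on all 6 arrays and gave no usable level.

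Genes outside the pluripotency list fell as far as its members. Stra8 read 3.0, 3.1 and 3.08 at 48 hr and 1.09, 1.44 and 1.47 at 72 hr (-1.73 ± 0.1, adjusted p = 2.49e-09). Ldhb had a value on only 2 of the 48 hr arrays, 2.39 and 2.26, and read 0.67, 0.67 and 0.65 at 72 hr (-1.67 ± 0.07, adjusted p = 1.45e-10). Gli1, the transcription factor and target of Hedgehog signaling, read 1.94, 2.05 and 1.95 and then 0.24, 0.37 and 0.44 (-1.63 ± 0.1, adjusted p = 4.55e-09). In all of them the gap between the times was wider than the range of the replicates at either time. Gsta4, a glutathione transferase that removes lipid peroxidation products, fell by 1.42 ± 0.07, and Alpl, the tissue-nonspecific alkaline phosphatase whose activity marks ES cell colonies, fell by 1.18 ± 0.06. Tcea3, a transcription elongation factor, fell by 1.1 ± 0.06, Rnf213, a large ubiquitin ligase, by 1.16 ± 0.11, and the transcript A830035A12Rik was 2.28-fold lower (adjusted p = 1.11e-06). Asb9, a substrate adaptor of ubiquitin ligases, was below the floor at 72 hr, so it was at least 2.62-fold lower than at 48 hr (adjusted p = 2.27e-11). The same held for Anp32a, an acidic nuclear phosphoprotein, which was at least 2.02-fold lower (adjusted p = 3.2e-07). Sgk1, a serum- and glucocorticoid-regulated kinase, fell by 1.13 ± 0.13, but with a value on only 1 of the 48 hr arrays.

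The transcription factors of trophectoderm gave a mixed picture on the third day. Of 28 tested, 6 rose and none fell, against 2.74% of genes with a symbol that rose, with a list median of 0.1. At an unadjusted p below 0.05, 11 were higher and 1 lower. Tead3, which reads Hippo signaling through YAP, rose by 1.17 ± 0.12 (-0.0, -0.02 and 0.09, then 0.97, 1.3 and 1.32), with 1 of the 48 hr arrays under the floor. Irx3, an Iroquois homeobox gene, rose by 1.15 ± 0.08 and Ovol2, a zinc finger repressor that keeps epithelial identity, by 1.1 ± 0.08. Pparg, a nuclear receptor needed for placental development, read 0.47, 0.28 and 0.4 and then 1.5, 1.47 and 1.44 (1.08 ± 0.07, adjusted p = 1.91e-08). Each of these 4 genes was higher on every 72 hr array than on any 48 hr array, as was every gene that rose.

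Gata2 and Gata3, which direct trophoblast gene expression, rose less. Gata2 read 2.01, 2.05 and 2.07 and then 2.83, 2.81 and 2.81 (0.77 ± 0.05, adjusted p = 2.67e-08). Gata3 read 1.59, 1.38 and 1.41 and then 2.21, 2.02 and 2.02 (0.62 ± 0.11, adjusted p = 0.000568), and it slipped under 1.5-fold when replicate 2 at 48 hr (0.58) or replicate 1 at 72 hr (0.56) was left out, and with the Cy3 channel alone (0.39). In the first day the same probes had changed by 1.57 and 1.98. Tfap2c, another trophoblast regulator, read 4.68, 4.65 and 4.62 and then 4.65, 4.68 and 4.7 (0.03 ± 0.07, adjusted p = 0.863), and the times overlapped. Hand1, a basic helix-loop-helix factor of giant cells, changed by -0.21 ± 0.11 (adjusted p = 0.278). Cdx2, the classical trophectoderm factor, changed by -0.09 ± 0.12 (adjusted p = 0.735), on a probe that the study's methods describe as unresponsive and with 2 values at 48 hr. Eomes and Tead4 were not analysed here.

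Among keratins and epithelial junction genes rises prevailed, 11 of 41 (26.8%, against 2.74% of all genes with a symbol) with no fall. The median change was 0.21, with 23 higher and 2 lower at an unadjusted p below 0.05. Krt19, a type I keratin of simple epithelia, read 0.33, 0.52 and 0.62 at 48 hr and 2.58, 2.71 and 2.71 at 72 hr (2.17 ± 0.08, adjusted p = 2.27e-11). Krt7, a type II keratin of trophoblast, read 1.85, 1.93 and 1.88 and then 2.95, 2.76 and 2.91 (0.99 ± 0.08, adjusted p = 2.46e-07). Neither overlapped between times, which held for every called gene, and the rise of Krt19 exceeded 4-fold. Krt18 was saturated on all 3 arrays at 72 hr, so it was at least 2.08-fold higher there (adjusted p = 0.00218). Perp, a tetraspan protein of desmosomes that p53 can induce, rose by 0.98 ± 0.05. The other members that rose included the junction genes Dsc2, Pkp2, Pkp3, Ppl and Cldn7 and the membrane protease gene St14, with changes from 0.59 to 0.68. Without background correction 6 members rose. Krt8 and Dsp were not analysed here.

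The actin cytoskeleton and focal adhesion list had the highest share of rises of all lists examined. Of its 56 members 21 rose (37.5%, against 2.74% of all genes with a symbol) and none fell. Its median change was 0.41, 51 of its 56 tested members were higher at 72 hr, and at an unadjusted p below 0.05 there were 37 higher and none lower. The members that rose included contractile and smooth-muscle genes (Acta2, Actn1, Myl6, Myl9, Tagln, Tpm2, Cald1, Cnn1, Cnn2), filament cutting, capping and nucleating proteins (Gsn, Capg, Arpc1b), adhesion genes (Zyx, Itgb1) and 5 annexins (Anxa1, Anxa2, Anxa3, Anxa4, Anxa5), with S100a6 and Rhoc. Gsn (gelsolin), which severs actin filaments, read -2.8, -2.79 and -2.64 at 48 hr and -0.87 and -0.95 on the 2 arrays at 72 hr that gave a value (1.84 ± 0.14, adjusted p = 1.67e-07). Cnn2 (calponin), an actin-binding regulator of contraction, read 0.34, 0.21 and 0.12 and then 1.69, 1.72 and 1.63 (1.46 ± 0.08, adjusted p = 2.3e-09). Tagln (transgelin), an actin-bundling protein, read -1.0, -0.75 and -1.03 and then 0.52, 0.51 and 0.54 (1.45 ± 0.18, adjusted p = 2.56e-05). Acta1 is not on this list, and neither are other muscle or cytoskeletal genes that were called, named here after their values were seen. Myl4, a myosin light chain of embryonic muscle and atria, rose by 1.95 ± 0.07, Myof (myoferlin), which acts in membrane repair and fusion, by 2.1 ± 0.08, and Eps8, which caps actin filaments, by 1.51 ± 0.12. Other muscle genes outside the list fell, the alpha-actinin gene Actn2 (-0.75), the myosin genes Mylpf (-1.08) and Myh6 (-0.93) and the troponin gene Tnnt1 (-0.73), while the troponin gene Tnnc1 rose (0.85).

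**Figure D3:**
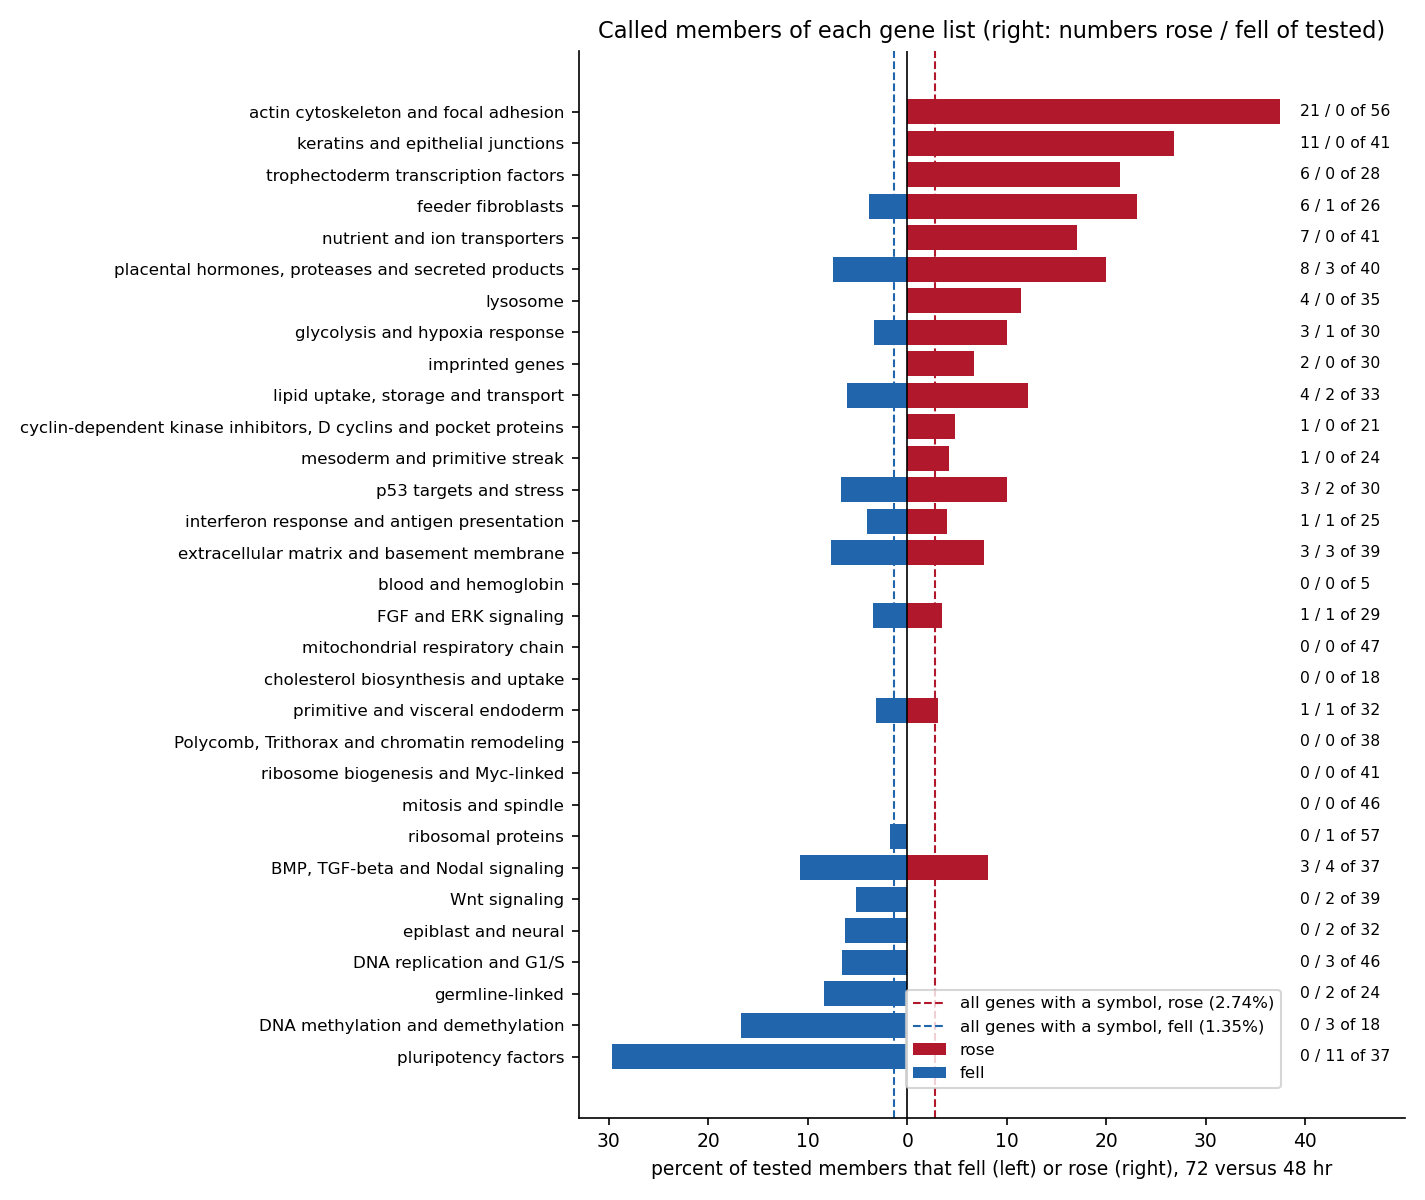
Percent of the tested members of each gene list that rose or fell from 48 to 72 hr, with dashed lines at the shares of all genes with a symbol (2.74% rose, 1.35% fell). The actin cytoskeleton list reaches furthest to the rising side (37.5%) and the pluripotency list to the falling side (29.7%).

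Many cytoskeletal genes are known to carry a CArG box, the motif bound by serum response factor (SRF), close to their start. The motif was searched on both strands in the 250 bases upstream of each start in the RefSeq promoter table (GRCm38.p6), which held 254 of the 312 symbols that rose and 123 of the 154 that fell. A CArG box was present for 8 of the 254 rises (3.15%), for 1 of the 123 falls (0.813%) and for 439 of all 27025 promoters (1.62%). The rises with a match were Acta1, Cnn2, Fermt2, Fhl2, Lima1, Myl6, Myl9 and Srf itself. Within the actin list the motif was found for 3 of 19 members that rose (15.8%) and for 4 of 29 that were not called (13.8%). The 2 stretches below are printed to show the motif, in capitals, in the promoters of strong rises. The first lies at chr8:123894814-123894873 on the minus strand with the match starting 73 bases before the start of Acta1, the second at chr10:79988519-79988578 on the plus strand with the match 56 bases before that of Cnn2.
Acta1: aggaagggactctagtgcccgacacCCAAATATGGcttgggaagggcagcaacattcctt
Cnn2: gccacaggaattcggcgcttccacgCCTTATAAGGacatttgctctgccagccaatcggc
The octamer ATGCAAAT, the classical POU-factor motif, was held by 1.18% of rises, 3.25% of falls and 1.81% of all promoters. The AP-1 motif TGANTCA was held by 9.06% of rises, 6.5% of falls and 7.82% of all promoters. These are counts of letters in a window and say nothing of binding.

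Placental products followed, with 8 of 40 list members rising (20% against 2.74% of all genes with a symbol) and 3 falling (7.5% against 1.35%), and a median change of 0.13. The Serpinb9 family, intracellular protease inhibitors with several members expressed in trophoblast, gave the most marked values. Serpinb9g read -0.05, 0.15 and 0.11 at 48 hr, 2 of them under the floor, and 2.08, 2.36 and 2.15 at 72 hr (2.13 ± 0.11, adjusted p = 1.14e-09). Serpinb9e read -0.04, -0.06 and -0.09 and then 1.31, 1.75 and 1.76 (1.67 ± 0.09, adjusted p = 2.74e-09). Serpinb9b, which is not on the list, read -0.07, -0.18 and -0.2 and then 1.8, 1.5 and 1.37 (1.71 ± 0.1, adjusted p = 7.16e-09). Before 48 hr none of the 3 had changed by more than 0.38 in a day. At 72 hr every array was above every array at 48 hr, as for every gene that rose. They are paralogs, and their 60-base probes shared 18 to 29 bases when laid side by side, but cross-hybridisation with other members of the family was not tested.

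Other secreted or surface products of placenta also rose. Sct (secretin), a gut hormone also made by trophoblast, read 2.05, 1.8 and 1.8 and then 3.48, 3.24 and 3.28 (1.45 ± 0.09, adjusted p = 1.51e-08). Flt1, the receptor for vascular endothelial growth factor of which placenta releases a soluble form, rose by 1.27 ± 0.1, and Plat (tissue plasminogen activator), a protease of invading cells, by 1.27 ± 0.09. Plac1, Plac8 and Ada made up the rest of the rises on the list, and the falls were Pcsk6, which cleaves Nodal precursors, Apoe and Igfbp3. Of the imprinted genes, which include many regulators of placental growth, 2 of 30 rose (6.67%, against 2.74% of all genes with a symbol). They were Slc22a18 (0.98 ± 0.07) and Osbpl5 (0.73 ± 0.08). H19 (0.26 ± 0.08, adjusted p = 0.0431) and Cdkn1c (0.23 ± 0.12, adjusted p = 0.248) were below 1.5-fold, but Cdkn1c reached 1.23 and passed with the Cy3 channel alone.

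The remaining genes with the largest rises belonged to no single list. Snap91, a clathrin assembly protein best known from synapses, read -0.28, -0.25 and -0.09 and then 1.66, 1.97 and 1.99 (2.08 ± 0.13, adjusted p = 1.23e-08). Lgals3, a beta-galactoside-binding galectin, read -1.58, -1.57 and -1.55 and then 0.33, 0.57 and 0.35 (1.98 ± 0.09, adjusted p = 2.33e-10). Glis1, a Krüppel-like zinc finger factor, read -0.76, -0.65 and -0.49 and then 0.99, 1.28 and 1.25 (1.81 ± 0.09, adjusted p = 1.14e-09). Each moved from below to above the reference pool. Itm2a, an integral membrane protein, rose by 1.85 ± 0.06 and Igsf8, an immunoglobulin-family partner of tetraspanins, by 1.68 ± 0.1.

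Of 41 nutrient and ion transporters 7 rose (17.1%, against 2.74% of all genes with a symbol) and none fell (median 0.17), with 18 higher and 6 lower at an unadjusted p below 0.05. Slc16a1, a monocarboxylate transporter, rose by 1.27 ± 0.12, and Tfrc, the transferrin receptor that brings in iron, by 1.22 ± 0.1 (0.8, 0.9 and 0.82, then 2.14, 2.06 and 1.98). Slc20a1, a phosphate transporter, rose by 0.82 ± 0.11 and Slc2a1, the glucose transporter Glut1, by 0.76 ± 0.07 (0.46 and not called with the Cy3 channel alone). The other transporters that rose were Slc22a18, Slc40a1 (the iron exporter ferroportin) and Slc38a1. The lysosome list had 4 rises among 35 (11.4%, against 2.74% of all genes with a symbol) and no fall. At an unadjusted p below 0.05, 15 were higher and 3 lower. The rises included the cathepsins Ctsa (1.01 ± 0.18) and Ctsz (0.95 ± 0.05) and the tetraspanin Cd63 (0.61 ± 0.11). The count of rises was 2 without background correction and 7 after correction of Cy5 for bleaching. Cd63 was under 1.5-fold without replicate 1 at 48 hr (0.53) or replicate 2 at 72 hr (0.58).

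Lipid genes moved in both directions, with 4 rises and 2 falls among 33 (12.1% and 6.06%, against 2.74% and 1.35% of all genes with a symbol). Besides Pparg, the rises were Plin2, which coats lipid droplets, Scarb1, the lipoprotein receptor, and Abcg1, a sterol exporter (0.71 ± 0.07), and 1 rise was called without background correction. The falls were Apoe, a lipoprotein component (-0.84 ± 0.07), and Cidea, a lipid droplet protein (-0.86 ± 0.09). In the glycolysis and hypoxia list Ndrg1 (1.15 ± 0.05), Ero1a (0.88 ± 0.09) and Slc2a1 rose and Ldhb fell, 4 of 30. These were 10% rising and 3.33% falling, against 2.74% and 1.35% of all genes with a symbol. The cholesterol synthesis list had no call among 18 in limma or with the error variance of the study's methods. In limma 5 had an unadjusted p below 0.05, and 3 an adjusted p at most 0.05 with a change below 1.5-fold.

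Few cell cycle genes passed. In the mitosis and spindle list 42 of 46 members were lower at 72 hr, with a median of -0.27 and changes from -0.5 to 0.2. None passed both thresholds in limma or with the error variance of the study's methods. In limma 14 had an adjusted p at most 0.05 but a change below 1.5-fold. At that adjusted p and any fold there were 1944 among the 11377 genes with a symbol. At an unadjusted p below 0.05 there were 28 members, 27 of them lower, against 1479 lower among those 11377. With the Cy3 channel alone 7 fell. In the DNA replication list 37 of 46 were lower (median -0.25), and 16 had a limma adjusted p at most 0.05 at any fold. Of these 3 fell (6.52% of the list, against 1.35% of all genes with a symbol). They were Mcm7 (-0.65 ± 0.1) and Mcm6 (-0.6 ± 0.09), subunits of the replicative helicase, and Ung, a uracil glycosylase, the last on 1 array at each time. The count of falls was 1 after the bleaching correction or in the values the authors deposited, and 11 with the Cy3 channel alone. Mcm7 was under 1.5-fold without replicate 1 at 48 hr (-0.57), and Mcm6 was without replicate 2 at 48 hr (-0.57) or replicate 1 at 72 hr (-0.54). Rb1, the retinoblastoma pocket protein, was the only called member of the 21 inhibitors, D cyclins and pocket proteins (0.6 ± 0.14, limma adjusted p = 0.00916). This was 4.76% rising, against 2.74% of all genes with a symbol. Rb1 lost the call without replicate 1 at 48 hr (0.42) or without replicate 2 (0.51) or 3 (0.57) at 72 hr, and with the Cy3 channel alone (0.45). Ccnd1 (0.28 ± 0.14, adjusted p = 0.294, with 1 value at 48 hr) did not pass, and its second probe gave -0.07. Myc changed by 0.2 ± 0.08 (adjusted p = 0.144).

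In the signaling lists few genes were called. Of 37 genes of BMP, TGF-beta and Nodal signaling 3 rose (Id3, Tgfb2, Smad1; 8.11% against 2.74% of all genes with a symbol) and 4 fell (Pcsk6, Smad6, Id4, Gdf3; 10.8% against 1.35%). Id3, an inhibitor of basic helix-loop-helix factors that BMP induces, read -1.51, -1.54 and -1.54 and then -0.66, -0.65 and -0.58 (0.9 ± 0.07, adjusted p = 1.37e-07), whereas its relative Id4 fell by 0.77 ± 0.14. Smad6, which blocks BMP signaling inside the cell, fell by 0.91 ± 0.11. Without background correction the list held 1 rise and no fall. Of 29 FGF and ERK genes 1 rose and 1 fell (3.45% each, against 2.74% and 1.35% of all genes with a symbol). Dusp14, a phosphatase of MAP kinases, rose by 0.91 ± 0.09 and Etv5, an ETS factor downstream of FGF, fell by 0.96 ± 0.07. Of 39 Wnt genes, the receptor Fzd7 (-0.66 ± 0.07) and the corepressor Tle4 (-0.68 ± 0.1) fell (5.13%, against 1.35% of all genes with a symbol). No member fell without background correction. In the p53 and stress list 3 of 30 rose and 2 fell (10% and 6.67%, against 2.74% and 1.35% of all genes with a symbol). The rises were led by Atf3, a stress-induced bZIP factor (1.36 ± 0.11), with Perp and Plk2. The oxidoreductase Nqo1 (-0.75 ± 0.06) and the pseudokinase Trib3 (-0.74 ± 0.09) fell.

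Among regulators of DNA methylation 3 of 18 fell (16.7%, against 1.35% of all genes with a symbol). Tet1, which oxidises methylcytosine, read 2.41, 1.93 and 1.7 and then 1.04, 0.72 and 0.76 (-1.17 ± 0.14, adjusted p = 1.37e-05). Dnmt3b, a de novo methyltransferase, read 3.42, 3.19 and 3.17 and then 2.55, 2.42 and 2.56 (-0.75 ± 0.09, adjusted p = 1.88e-05). Apobec2, a member of the cytidine deaminase family, fell by 0.62 ± 0.09, and lost the call without replicate 1 at 72 hr (-0.51). In the germline list Stra8 and the receptor Kit fell, 2 of 24 (8.33%, against 1.35% of all genes with a symbol). Kit was below the floor at 72 hr and at least 1.2-fold lower (limma adjusted p = 0.0011). No gene passed among 38 Polycomb, Trithorax and remodeling genes, 47 of the respiratory chain or 41 of ribosome biogenesis, in limma or with the methods' error variance. The counts at an unadjusted p below 0.05 were 15, 13 and 17, beside 3420 of the 11377 genes with a symbol. Those at a limma adjusted p at most 0.05 but below 1.5-fold were 7, 5 and 8, beside 1944 of the 11377 at any fold. Of 57 ribosomal protein genes 1 fell, Rpl22 (-0.66 ± 0.07), a share of 1.75% against 1.35% of all genes with a symbol.

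Genes of other lineages and of the feeder layer were examined as a check on the cells. Of 10 tested trophoblast markers 5 rose (Gata2, Gata3, Krt7, Krt18, Plac1), against 2.74% of all genes with a symbol. Cdx2 (-0.09), Tfap2c (0.03), Hand1 (-0.21), Elf5 (0.13) and Esx1 (0.06) were not called. Of 7 ES markers 2 fell (Sox2, Nanog), against 1.35% of all genes with a symbol, and Pou5f1, Zfp42, Esrrb, Tcl1 and Dppa3 were not called. The neural markers Pax6 (0.08), Sox1 (0.01), Nes (0.21) and Tubb3 (-0.01) and the mesoderm marker Mixl1 (0.06) were below 1.5-fold. T (brachyury), the primitive streak factor, changed by 0.09 ± 0.06 (adjusted p = 0.396), and Fgf5, an epiblast gene, was below the floor on all 6 arrays. Of 6 primitive endoderm markers Sox7, Afp and Ttr were below the floor on all 6 arrays, and Gata6 read -0.71, -0.43 and -0.35 and then -1.2, -0.98 and -1.08. Gata6 fell by 0.59 ± 0.08 but lay at the 1.5-fold limit and lost the call when replicate 2 (-0.55) or 3 (-0.52) at 48 hr or replicate 1 at 72 hr (-0.53) was left out. In the longer lists 1 of 24 mesoderm genes rose (Flt1, 4.17% against 2.74% of all genes with a symbol). Of 32 epiblast and neural genes 2 fell, Igfbp2 and Stmn2 (6.25%, against 1.35% of all genes with a symbol). Of 32 endoderm genes 1 rose (Plat) and 1 fell (Gata6), 3.12% each. Of 25 interferon and antigen presentation genes B2m rose and Socs3 fell, 4% each. Both lists stand against 2.74% rising and 1.35% falling among all genes with a symbol, and each of these shares is 1 gene. The blood list had no call among 5 and no unadjusted p below 0.05 in limma, and Ptprc, the leukocyte antigen, was below the floor throughout.

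Genes on the list of feeder fibroblasts moved in the same interval. Of 26 feeder-list genes 6 rose (23.1%, against 2.74% of all genes with a symbol) and 1 fell, Vim (3.85%, against 1.35%). The rises included Postn, Tagln, Acta2, Thbs1 and Cnn1. Without background correction 3 rose, and 3 of the 6 rises are also members of the actin list. The 6 defining markers had a summed ratio of 1.71 to 1.77 at 48 hr and 2.13 to 2.24 at 72 hr, and without Postn of 1.53 to 1.61 and 1.56 to 1.72. Levels of different probes are not comparable, and the sum without Postn rests mostly on Lum and Thy1 (means of -0.51 and -0.73 at 48 hr). It therefore cannot show whether the collagen genes or Dcn changed. Postn (periostin) was below the floor at 48 hr and at least 1.95-fold higher at 72 hr (adjusted p = 4.11e-07). The collagen genes Col1a1 (0.24) and Col1a2 (-0.10) and the proteoglycan genes Dcn (0.25) and Lum (0.03) were below 1.5-fold, and Thy1 was under the floor on all 6 arrays. Vim, the intermediate filament of mesenchymal cells, read -2.97, -3.04 and -2.89 and then -4.15, -3.93 and -4.0 (-1.06 ± 0.13, adjusted p = 2.71e-05). The study's methods describe removal of feeder cells by passages on gelatin for its new, earlier time points. They take the RNA of the later time points from a previous experiment and do not describe its culture. The part of feeder cells in the cytoskeletal rises was not tested. The matrix list was split, with Thbs1 (1.1 ± 0.08), Ccn1 and Ccn2 rising and Tgfbi (-1.04 ± 0.12), Nid2 (-0.99 ± 0.07) and Col18a1 (-0.98 ± 0.07) falling among 39. Each direction held 7.69% of the list, against 2.74% and 1.35% of all genes with a symbol.

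The changes of the third day were then set beside the rest of the time course. The comparison of 120 with 0 hr used none of the 6 arrays, but its span includes the interval from 48 to 72 hr. Genes picked for a change in that interval are more likely to be called the same way over the span. The shares from 0 to 120 hr are therefore a description. It found 384 of the 398 rises (96.5%) higher at 120 hr, against 12.1% of all genes tested, and 144 of the 170 falls (84.7%) lower, against 8.53%. The median change over the 5 days was 2.11 for the rises and -1.48 for the falls. In the first day, again on other arrays, the same genes had moved in both directions. Of the rises 74 rose (18.6%) and 33 fell (8.29%) from 0 to 24 hr, and of the falls 35 rose (20.6%) and 34 fell (20%), against 3.95% and 3.63% of all genes. Some genes that moved between 48 and 72 hr ended near their starting level, such as Asb9 (-0.19 from 0 to 120 hr), Alpl (-0.36) and Gata6 (0.07).

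**Figure D4:**
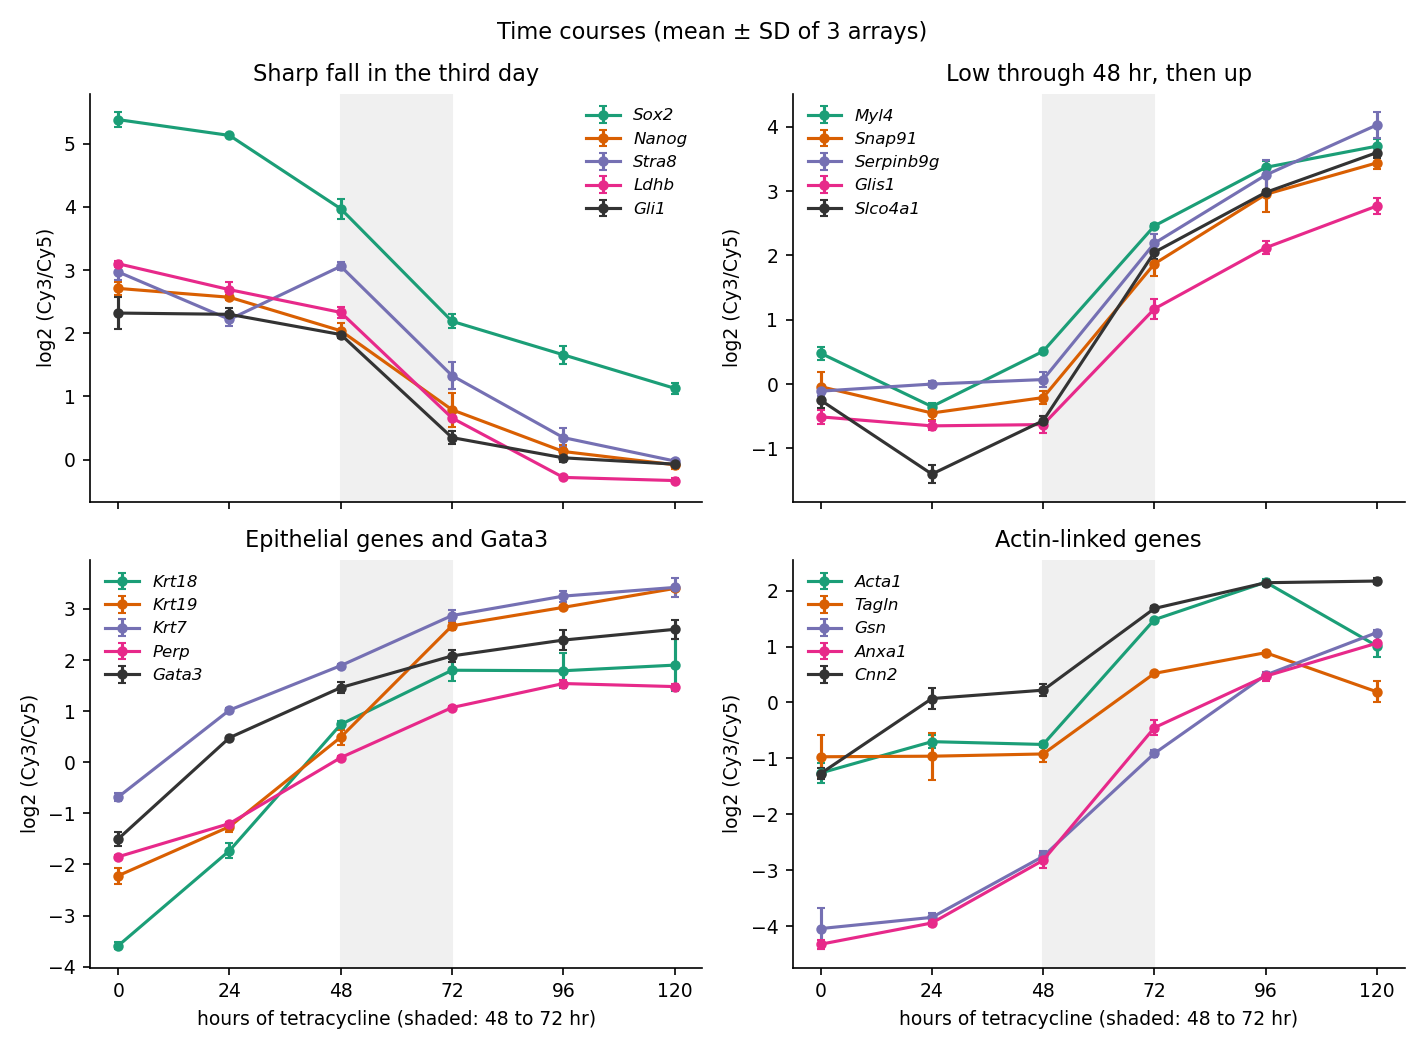
Level (log2 of Cy3 over Cy5, mean ± SD of the arrays with a value, 3 at most) at 0 to 120 hr for 20 named genes in 4 panels, with the interval from 48 to 72 hr shaded. Slco4a1, Serpinb9g and Acta1 climb most steeply in the shaded interval, Gata3 mainly before it, and Sox2 and Stra8 descend in it. Krt18 was saturated on the 72 hr arrays, so its level there is a lower bound.

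The change from 48 to 72 hr was also compared with the mean change of the other 4 daily intervals by a limma contrast. It differed for 981 of 20711 genes (4.74%), 587 above and 394 below. This count was 394 after the bleaching correction, 255 with the methods' error variance, 2748 with array weights and 613 without replicate 2 at 72 hr or 642 without replicate 2 at 48 hr. Of the rises 264 (66.3%) were above that mean and of the falls 111 (65.3%) below it, but the 48 and 72 hr arrays enter both measures, so these shares are a description. Slco4a1 changed by -1.15, 0.84, 2.62, 0.92 and 0.62 in the 5 successive days, and the third day had the largest change of the 5. Acta1 changed by 0.56, -0.04, 2.23, 0.67 and -1.14, so that nearly all of its net gain fell within the interval. Gata2 (-0.16, adjusted p = 0.226) and Krt7 (0.21, adjusted p = 0.329) did not pass in this contrast. Smad6 and Vim had risen in the first day (2.38 and 1.66) and fell on the third.

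**Figure D5:**
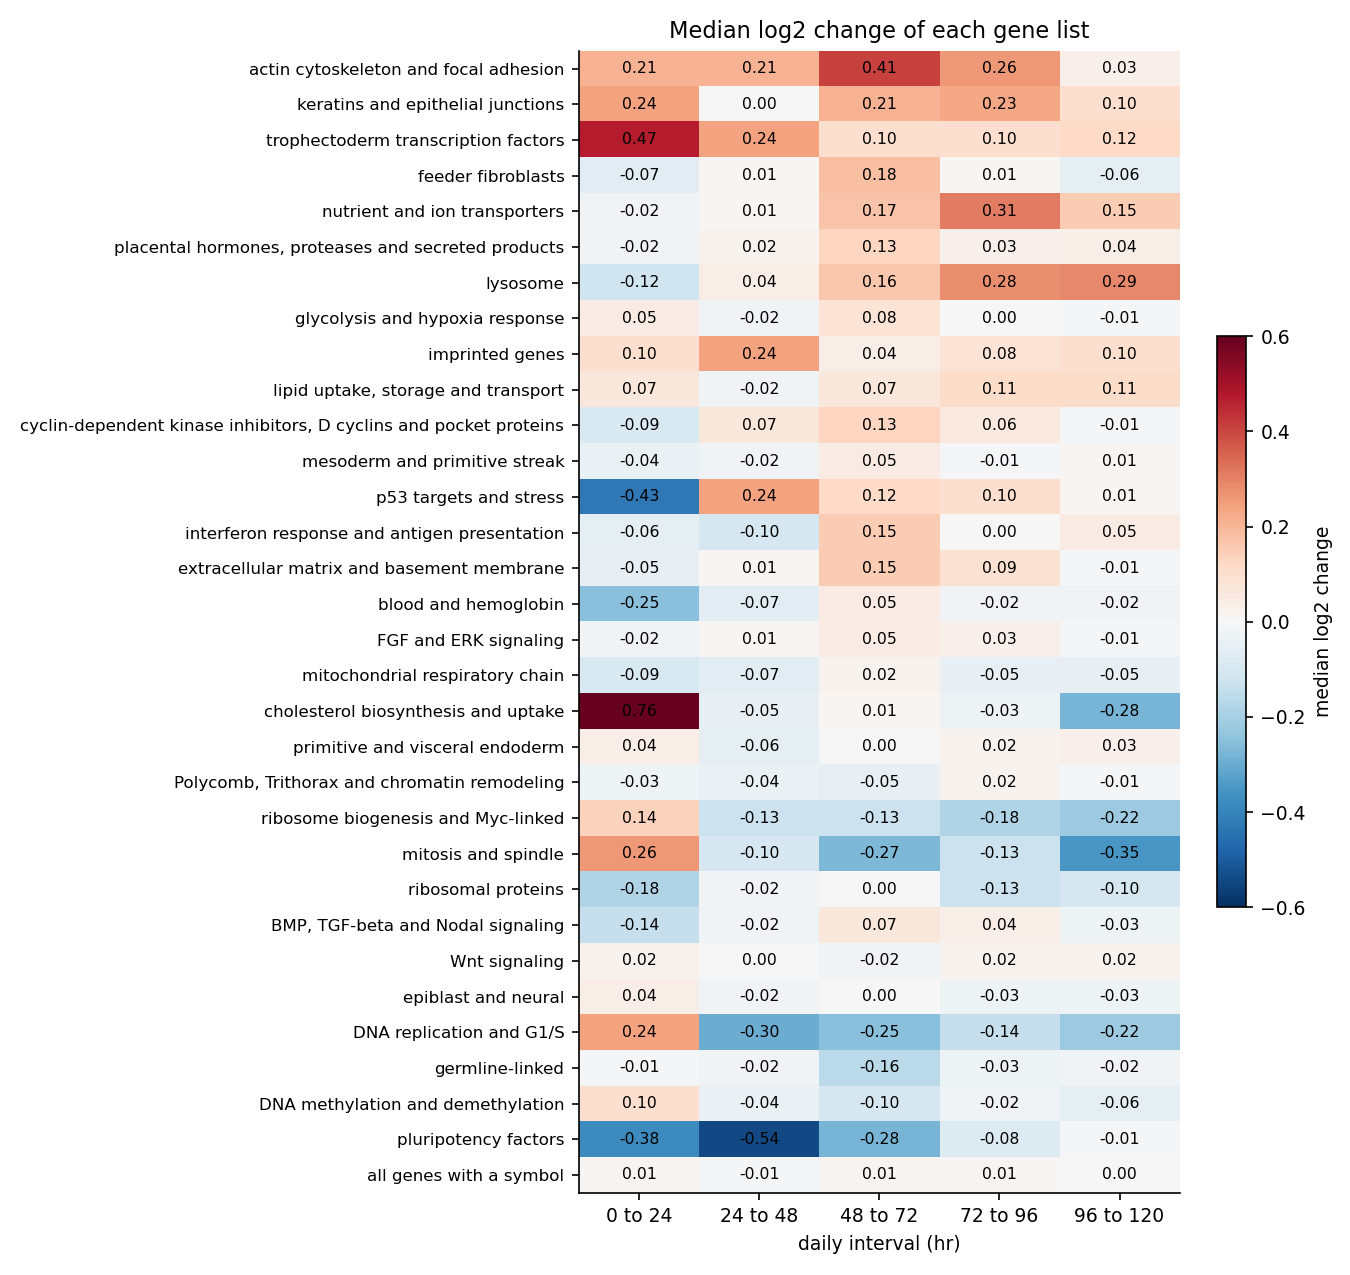
Median log2 change of each gene list (rows) in each of the 5 daily intervals (columns), in colour. The actin list is highest on the third day (0.41, against 0.21, 0.21, 0.26 and 0.03 on the others), the pluripotency list is lowest on the second (-0.54), and the mitosis list passes from 0.26 on the first day to -0.27 on the third.

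Over the 5 days the list medians had different courses. The actin list had medians of 0.21, 0.21, 0.41, 0.26 and 0.03. On the third day 18 of its 56 members exceeded their own mean of the other days, beside 462 of the 11377 genes with a symbol. The pluripotency list had -0.38, -0.54, -0.28, -0.08 and -0.01, so that the third day had a smaller median than the first and the second. The trophectoderm factors had 0.47, 0.24, 0.1, 0.1 and 0.12, with 12 rises on the first day, 9 on the second and 6 on the third. On those days 690, 249 and 312 of all genes with a symbol rose, so the list counts did not follow the count over all genes. Placental products had 3, 3, 8, 3 and 3 rises and 2, 2, 3, 0 and 0 falls. All genes with a symbol had 690, 249, 312, 182 and 66 rises and 553, 310, 154, 42 and 29 falls in the same intervals. From 0 to 120 hr, on arrays other than the 6 but over a span that includes the interval, 39 of the 56 actin genes rose. Over the same span 34 of the 37 pluripotency genes fell, beside 1907 rises and 1421 falls among the 11377 genes with a symbol.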

How the data were processed

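Total RNA of the cells (Cy3) and Universal Mouse Reference RNA (Cy5) of the late course were hybridised to NIA Mouse 22K Microarrays (60-base probes, no dye swap). These 18 late arrays, of 40 in the series, were fitted. The study's methods name a larger array design for its new samples. The deposited scanner files hold Cy3 and Cy5 intensity from Agilent Feature Extraction 7.5.1. The value table of the series, deposited by the authors, holds log10 values of Cy3 adjusted through Cy5, with centring not stated, and was an alternative. Its columns for the 48 and 72 hr arrays had medians of 2.937 to 2.96 log10 units, and over the 18 arrays its gene-centred values correlated with gene-centred log2 ratios at 0.9501 to 0.9964 and its levels with log2 Cy3 at 0.9416 to 0.9699. Mean intensity and local background were corrected by normexp (offset 50) and log2 ratios normalized by loess within arrays, with control spots at weight 0 and outlier-flagged spots missing, in limma 3.58.1 (R 4.3.3). One model over the 18 arrays (lmFit, eBayes, two-sided, without a block) gave the contrasts, adjusted by Benjamini-Hochberg over all genes. Thresholds were an adjusted p of 0.05 and 1.5-fold.

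Of 21052 gene probes, 10422 were named through RefSeq accessions, 1285 through probe annotation from the study and 9345 not. The brightest probe stood for each of the 11382 symbols and unnamed probes were tested singly. Signals limit precision: the median Cy3 was 605.8 to 713.7 over a local background of 368 to 376, and every negative control was called well above background by the software, so the controls' 95th percentile served as floor. A bound takes, per array, the higher of the floor and the probe's own signal. Genes named were the 15 largest rises and falls with arrays that did not overlap, the 4 largest called members of each list, the 8 largest differences from the other days in each direction, and fixed regulators; some genes that the rule names are not reported here, and further members of small counts were named after their values were seen. The members and lists were chosen with earlier results of these data known. Deviations of replicates of the same number correlated at r = 0.45, 0.127 and 0.22 for the 3 pairs, and those of different number at -0.389 to 0.352. These values do not establish that the numbers pair the arrays. The main fit used no block, and a fit with a replicate block was an alternative. Fits were tested on simulated data. The scan session could not be tested as a block.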

Additional observations from a re-analysis of the deposited data

Results flagged for a closer look

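For 16 of the genes named above, the change from 48 to 72 hr differed from the mean change over the other 4 daily intervals (limma contrast, adjusted p at most 0.05), and they were picked as the 8 largest differences in each direction among genes called between 48 and 72 hr. Those that exceeded their other days, in log2 units, were Slco4a1 by 2.31, Acta1 by 2.22, Myof by 2.14, Snap91 by 1.73, Myl4 by 1.63, Eps8 by 1.63, Anxa1 by 1.62 and Serpinb9g by 1.62, the last from a 48 hr level that was under the floor on 2 of 3 arrays. Myof and Eps8 had dropped by 2.62 and 1.52 in the first day and came back on the third, whereas Serpinb9g had changed by 0.11 and 0.07 in the first and second.

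Those with a negative difference were Asb9 (-1.74), Gli1 (-1.44), Stra8 (-1.41), Alpl (-1.38), Vim (-1.36), Hs3st3b1 (-1.34), Erbb3 (-1.32) and Ldhb (-1.23). Asb9 had risen by 1.11 on the second day and was below the floor on all 3 arrays at 72 hr, so its difference is measured against background and is not exact. Hs3st3b1, a heparan sulfate sulfotransferase, and Erbb3, a receptor of the epidermal growth factor receptor family, had risen by 2.28 and 1.91 in the first day and fell by 0.93 and 0.87 on the third. Gli1 had changed by -0.02 and -0.32 on the first and second days.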

How the results depend on the processing

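The number of genes called between 48 and 72 hr (568, 398 up and 170 down) was 237 (167 and 70) without background correction, 893 (377 and 516) with the Cy3 channel alone and 126 (100 and 26) at 2-fold. Leaving out 1 array gave totals of 550 to 589, with 367 to 453 rises and 136 to 187 falls. With the replicate block, which treats arrays of the same number as paired, 575 genes were called (403 and 172), and no called gene named by the rule lost its call. The count of genes whose change from 48 to 72 hr differed from the other days (981) was 394 with Cy5 corrected for bleaching, 255 with the methods' error variance, 2748 with array weights and 613 to 809 with 1 array left out, 642 without replicate 2 at 48 hr and 613 without replicate 2 at 72 hr. Called genes also called the same way from 0 to 120 hr numbered 528, or 219 without background correction, 119 at 2-fold and 505 to 549 with 1 array left out. Called members of the lists numbered 76 rises (44 without background correction, 68 to 82 with 1 array left out) and 40 falls (22 without background correction, 74 with the Cy3 channel alone, 36 to 43 with 1 array left out). No called gene named by the rule changed direction, and 29 of 95 lost the call without background correction. Among values that were not called, the sign turned for Cdx2 (0.02 after the bleaching correction), Tfap2c (-0.01 in the processed signals of the scanner software), Ccnd1 (-0.07 with its lowest-numbered probe), Myc (-0.04 with Cy3 alone) and Fgf5 (-0.12 to 0.05 with 1 array left out). With Cy3 alone the list medians turned to -0.01 for matrix, -0.06 for cell cycle inhibitors, -0.02 for lipid and -0.06 for interferon genes, and Cdkn1c (1.23) and Ccnd1 (0.60) passed. The cause of these shifts was not tested. A scan or slide block was not run because each slide held 1 array and the late arrays were extracted in 1 session.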
